A study of Mus musculus with 6 samples.

Results

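The striatal projection neuron markers Drd1, Tac1, Drd2, Adora2a, Gpr6, Penk, Rgs9, Pde10a and Ppp1r1b were examined in RNA-seq of primary somatosensory (S1) cortex. These 9 genes, of 14824 in the deposited table, were chosen by symbol as known markers of striatal neurons, after Drd2 and Adora2a had been noticed for large differences between whisker-stimulated (WS) and non-stimulated (NS) samples. The values of WS against NS are therefore given for these 9 genes as a description, with no test. The samples came from male wild-type C57B6 mice at postnatal day 21, with 3 NS samples that received no treatment and 3 WS samples that received daily whisker stimulation, taken 90 minutes after the last stimulation. Both groups share genotype, strain and age, and every sample is bulk S1 tissue that holds neurons, glia and vessel cells together. The whiskers of one side were brushed by hand, and the study describes the NS tissue as the cortex of the other side. No label says how the tissue was cut or which sample numbers come from the same mouse, so p-values measure only the spread between these samples.

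The striatum lies beneath the cortex, separated from it by the white matter, and consists mostly of GABAergic spiny projection neurons. Those of the direct pathway carry the dopamine D1 receptor, which raises cyclic AMP, and make tachykinin peptides, whereas those of the indirect pathway carry the dopamine D2 receptor, which lowers cyclic AMP, together with an adenosine receptor (the product of Adora2a) and enkephalin. Both kinds are rich in proteins that act on cyclic AMP and G protein signals, including a phosphodiesterase (PDE10A), an RGS protein (RGS9) and the phosphatase regulator DARPP-32. Several of these genes are also used by cortical cells, for example Drd1 and Ppp1r1b in deep-layer neurons, and Penk and Tac1 in interneurons.

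The read count of a gene in a library was recovered by undoing its deposited z-score, and the counts summed to between 15660395 and 17276168 per library. Levels are given as CPM, counts divided by the library's total and put on the usual common scale, with totals adjusted by edgeR's TMM factors. The cortical identity of the samples was checked with 12 markers of cortical projection neurons (among them Slc17a7, Neurod6, Tbr1, Emx1, Cux2, Rorb and Fezf2), all of which were counted in every library and summed to between 3123 and 3904 CPM. Slc17a7 alone had 1912 to 2545 CPM, so it made up most of this sum. WS replicate 2 stood apart from the other 5 libraries in the striatal markers, and their values in WS against NS are given with and without it.

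All 9 striatal markers were detected in all 6 libraries and passed the filter on low counts, and all 9 were highest in WS replicate 2. Among all 13747 tested genes, 11.3% were highest in that library. Its level was above the next highest library by a factor of 1.24 for Pde10a to 2.74 for Drd2. In all 9 genes it was more than 1.5 times the mean of the other 5 libraries, which was the case for 1.99% of all tested genes. Drd2 and Adora2a are among the 9 and were noticed for a difference that this library carries. The counts over all 9 are therefore a description. In bulk samples a larger share of cells of a type and more RNA per cell cannot be told apart.

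**Figure D1:**
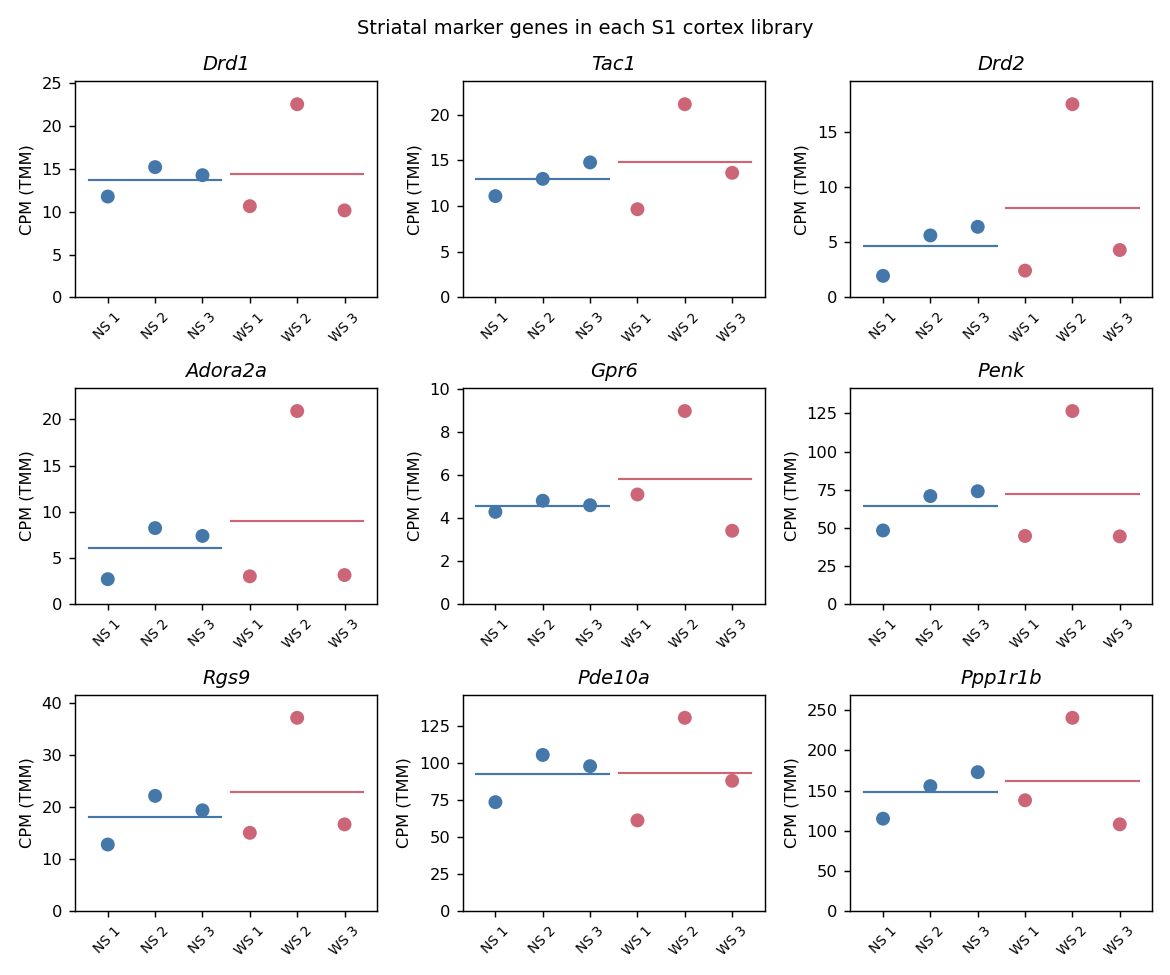
Level of each striatal marker gene (CPM, TMM-normalized) in the 3 NS libraries (blue) and the 3 WS libraries (red), with 1 point per library and the group mean as a line. In every panel WS replicate 2 is the highest point, from 1.24 times (Pde10a) to 2.74 times (Drd2) the next highest library.

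The direct pathway markers are described first. Drd1 (GRCm38 chr13:54051183-54055705, minus strand), which encodes the D1 dopamine receptor, had 11.8, 15.2 and 14.3 CPM in NS replicates 1, 2 and 3, and 10.7, 22.6 and 10.2 CPM in WS replicates 1, 2 and 3. WS replicate 2 lay above all NS libraries, while the other WS libraries lay below them. The mean was 13.8 ± 1.78 CPM in NS and 14.5 ± 7.03 CPM in WS (SD, n = 3 each). Tac1, the precursor of substance P and neurokinin A, had 11.1, 13.0 and 14.8 CPM in NS and 9.66, 21.2 and 13.6 CPM in WS. Its mean was 13.0 ± 1.84 CPM in NS and 14.8 ± 5.84 CPM in WS (SD, n = 3 each), and the groups overlapped. WS replicate 2 exceeded the mean of the other 5 libraries 1.82-fold for Drd1 and 1.70-fold for Tac1.

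Of the 9 markers, Drd2 and Adora2a, both of the indirect pathway, had the widest range over libraries. Drd2 (GRCm38 chr9:49340627-49408177, plus strand), which encodes the D2 dopamine receptor, was counted 31, 90 and 103 times in NS replicates 1, 2 and 3 and 41, 283 and 68 times in WS replicates 1, 2 and 3. The exact Poisson 95% interval was 251 to 318 for the count in WS replicate 2 and 84.1 to 124.9 for that in NS replicate 3, the next highest. Nothing is read from this gap, because Drd2 was noticed for a difference that WS replicate 2 carries. The mean level of Drd2 was 4.66 ± 2.37 CPM in NS and 8.08 ± 8.22 CPM in WS (SD, n = 3 each), with the SD in WS larger than the mean.

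Adora2a (GRCm38 chr10:75316877-75334784, plus strand), which encodes an adenosine receptor that raises cyclic AMP, was counted 43, 132 and 119 times in NS and 51, 338 and 50 times in WS. Its count in WS replicate 2 (exact Poisson 95% interval 303 to 376) was 4.26 times the mean level of the other 5 libraries, close to the 4.23-fold of Drd2. Between the libraries with the highest and the lowest level, Drd2 ranged 8.96-fold and Adora2a 7.71-fold. Both genes were noticed for a difference that WS replicate 2 carries, so the size of their ratios describes the choice and is not a separate result.

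Gpr6, an orphan receptor that raises cyclic AMP, had 4.29, 4.81 and 4.60 CPM in NS and 5.09, 8.97 and 3.41 CPM in WS. The NS libraries lay close together (SD 0.261 CPM), and the WS libraries lay on both sides of them. Penk, the enkephalin precursor, had 48.4, 70.9 and 74.0 CPM in NS and 44.7, 126.6 and 44.5 CPM in WS. The WS libraries other than replicate 2 thus lay below all NS libraries for Penk. WS replicate 2 exceeded the mean of the other 5 libraries 2.02-fold for Gpr6 and 2.24-fold for Penk.

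RefSeq start sites on GRCm38.p6 were matched for 6 of the 9 genes (Drd1, Tac1, Drd2, Gpr6, Rgs9 and Pde10a), giving 8 windows of the 250 bases upstream of a start. Windows of both dopamine receptors, and those with letters of the cyclic AMP response element, are shown because these genes were high in the same library. Capitals mark TGACG on either strand (the response element half-site) and GGGCGG on either strand (the GC box).
Drd1, chr13:54055659-54055908, minus strand: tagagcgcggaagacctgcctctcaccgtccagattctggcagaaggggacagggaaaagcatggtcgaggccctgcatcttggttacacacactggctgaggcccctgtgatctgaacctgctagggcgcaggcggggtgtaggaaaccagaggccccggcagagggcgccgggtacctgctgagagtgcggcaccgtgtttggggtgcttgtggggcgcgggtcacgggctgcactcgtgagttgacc
Drd2, chr9:49340153-49340402, plus strand: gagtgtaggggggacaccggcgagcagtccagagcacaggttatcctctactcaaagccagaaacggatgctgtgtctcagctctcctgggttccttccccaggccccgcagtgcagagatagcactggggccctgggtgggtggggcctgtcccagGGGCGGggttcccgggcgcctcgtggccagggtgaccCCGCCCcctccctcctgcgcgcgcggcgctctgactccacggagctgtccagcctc
Gpr6, chr10:41072291-41072540, minus strand: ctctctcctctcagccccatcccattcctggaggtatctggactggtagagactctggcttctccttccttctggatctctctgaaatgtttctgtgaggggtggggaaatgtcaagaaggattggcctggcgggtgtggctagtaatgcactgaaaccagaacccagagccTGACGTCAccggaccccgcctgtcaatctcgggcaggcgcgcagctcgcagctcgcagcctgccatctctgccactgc
Tac1, chr6:7554811-7555060, plus strand: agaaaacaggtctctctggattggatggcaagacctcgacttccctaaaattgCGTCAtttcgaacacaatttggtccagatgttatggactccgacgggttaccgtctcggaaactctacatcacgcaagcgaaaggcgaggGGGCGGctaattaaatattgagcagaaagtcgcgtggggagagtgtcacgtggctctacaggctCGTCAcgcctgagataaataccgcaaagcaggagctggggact

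The full element TGACGTCA, which contains the half-site on both strands, was found in the Gpr6 window alone among the 8, and in 1.55% of 32817 windows of the same length. The half-site was found in the Gpr6 and Tac1 windows, and in 17.7% of all windows. Drd2 held 2 GC boxes, Tac1 held 1 and the printed Drd1 window held 0 (a second Drd1 window, of another start site at chr13:54054781-54055030, held 1), against at least 1 in 32.7% of all windows. A match describes letters only. All 9 markers, and so the 4 genes shown, were highest in WS replicate 2. Windows with and without the half-site therefore cannot be compared by that level, and a role of these letters was not tested.

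Rgs9, Pde10a and Ppp1r1b act in the neurons of both pathways. Ppp1r1b, which encodes DARPP-32, had 115.1, 155.6 and 173.0 CPM in NS and 138.0, 240.7 and 108.0 CPM in WS. Pde10a, which breaks down cyclic AMP and cyclic GMP, had 73.6, 105.6 and 98.0 CPM in NS and 61.3, 130.7 and 88.1 CPM in WS. Rgs9, which speeds the switching-off of G protein signals, had 12.8, 22.2 and 19.4 CPM in NS and 15.0, 37.2 and 16.7 CPM in WS. In each of these genes the NS libraries lay between the lowest and the highest WS library, except that NS replicate 1 was the lowest for Rgs9. WS replicate 2 exceeded the mean of the other 5 libraries 2.16-fold for Rgs9, 1.75-fold for Ppp1r1b and 1.53-fold for Pde10a, the smallest ratio of the 9.

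In the GENCODE M21 annotation of GRCm38, Penk, Pde10a and Ppp1r1b overlap genes on the other strand. Reads of such overlaps could have been counted with them, since whether the counting used strand is not given in the sources used here. The other 6 genes overlap no annotated gene. Per kilobase of exon, the mean level over the 6 libraries was 53.0 CPM per kb for Ppp1r1b and 41.7 CPM per kb for Penk. The other 7 markers lay between 2.47 CPM per kb (Adora2a) and 7.23 CPM per kb (Pde10a). The range over libraries was 36.9 to 82.2 CPM per kb for Ppp1r1b and 27.2 to 77.5 CPM per kb for Penk and these ranges overlapped. The range of Pde10a, 4.77 to 10.2 CPM per kb, lay below both and overlapped that of Tac1, next in order with 2.84 to 6.22 CPM per kb. The markers with the lowest mean level per kilobase, Adora2a and Drd2, had the widest relative range.

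The sum of the 9 markers was 281.7, 401.1 and 411.9 CPM in NS replicates 1, 2 and 3, and 289.9, 626.3 and 291.9 CPM in WS replicates 1, 2 and 3. WS replicate 2 was thus 2.22 times the lowest library, and without it the range narrowed to 1.46-fold. NS replicates 2 and 3 formed a middle level. In 7 of the 9 genes both lay above NS replicate 1, WS replicate 1 and WS replicate 3, an order found in 5.62% of all tested genes. The exceptions were Tac1 and Gpr6. In all 9 genes NS replicates 2 and 3 lay above NS replicate 1. The share of all tested genes with this last order was not computed, so nothing is read from it.

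As sums, the indirect pathway markers had a wider range over libraries than the direct pathway markers. The summed CPM of Drd2, Adora2a, Gpr6 and Penk, not scaled for length, was 2.50, 3.17 and 3.18 times that of Drd1 and Tac1 in NS, and 2.72, 3.98 and 2.32 times in WS. The ratio of the Drd2 count to the Drd1 count was 0.166, 0.369 and 0.448 in NS and 0.228, 0.775 and 0.422 in WS. The ratio of Adora2a to Drd2 moved less, with 1.39, 1.47 and 1.16 in NS and 1.24, 1.19 and 0.735 in WS. WS replicate 2 was the highest for both ratios of indirect to direct markers, which is no separate result because Drd2 and Adora2a were noticed for a difference that this library carries. Penk made up most of the indirect sum, and without Penk and Tac1 the ratio was 0.759, 1.23 and 1.29 in NS and 0.989, 2.099 and 1.07 in WS.

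Pearson's r of each marker's log2 CPM with the log2 sum of the other 8, across the 6 libraries, ranged from 0.829 (Pde10a) to 0.995 (Adora2a). Without WS replicate 2 it ranged from 0.356 (Gpr6) to 0.991 (Adora2a) across 5 libraries. These values are descriptions, as the libraries share their scaling and WS replicate 2 has a large weight in them. Adora2a, Penk and Drd1 stayed above 0.9 without that library, whereas Gpr6, Tac1, Pde10a and Ppp1r1b fell below 0.7.

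Relative to NS, the 9 markers had a median log2 fold change of 0.19 in WS, against 0.01 over all tested genes, and all 9 values were above 0. The largest was Drd2 with 0.79 (standard error 0.60), followed by Adora2a with 0.56 (standard error 0.63), Gpr6 with 0.35 (standard error 0.29) and Rgs9 with 0.34 (standard error 0.30). Tac1 had 0.19, Penk 0.16, Ppp1r1b 0.13, Drd1 0.07 and Pde10a 0.01, each smaller than its standard error of 0.22 to 0.33. In the fit over all genes, 0.0291% were past an adjusted p of 0.05 and a log2 fold change of 1, and 0 of the 9 were among them, from which nothing is read because this contrast led to their choice. The groups overlapped in all 9 markers, whereas 6.27% of all tested genes had groups that did not overlap (3.11% with WS higher and 3.16% with WS lower).

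Without WS replicate 2, all 9 values were below 0, with a median of -0.32. The same thresholds were passed by 0.0289% of all genes in that fit and by 0 of the 9, again with nothing read from it. Adora2a then had -0.99 (standard error 0.38), Penk -0.54 (standard error 0.16), Drd2 -0.48 (standard error 0.41) and Drd1 -0.41 (standard error 0.15). The WS libraries 1 and 3 lay below all NS libraries in 2 of the 9 genes, Drd1 and Penk, against 6.8% of all tested genes. The direction of the markers in WS thus turned with 1 library. Without NS replicate 1, which was low like WS replicates 1 and 3, 5 of the 9 were above 0 and 4 below.

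**Figure D2:**
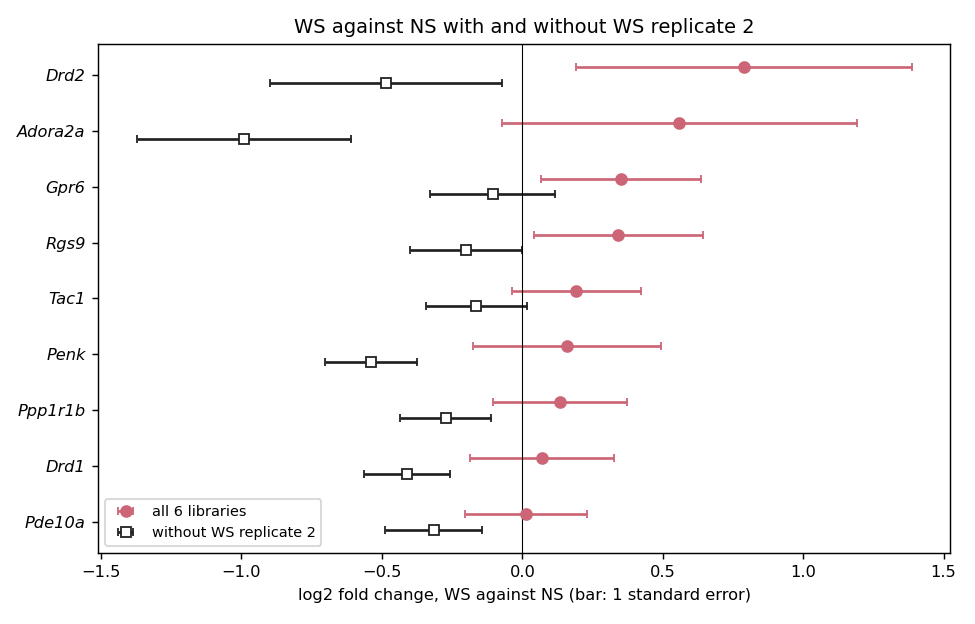
Log2 fold change of each striatal marker in WS against NS, with 1 standard error as the bar, from edgeR fits with all 6 libraries (filled circles) and without WS replicate 2 (open squares). All 9 values are above 0 with all libraries and below 0 without WS replicate 2.

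By sample number, the difference lay in number 2. The WS level over the NS level of the same number ranged from 1.24 (Pde10a) to 3.12 (Drd2) for number 2, and was above 1 for all 9 genes. For number 3 it was below 1 for all 9, from 0.427 (Adora2a) to 0.923 (Tac1). For number 1 it lay between 0.833 (Pde10a) and 1.24 (Drd2). The ratio of number 2 thus pointed the other way from that of number 3 in every marker. The shares of all tested genes with these directions were not computed, so the counts are a description. With the sample number as a replicate block in the fit, the log2 fold change was 0.58 (standard error 0.26) for Drd2, 0.27 (standard error 0.27) for Adora2a, 0.29 for Gpr6, 0.27 for Rgs9, 0.15 for Tac1 and 0.08 for Ppp1r1b. Penk had 0.01 (standard error 0.16), Drd1 0.01 (standard error 0.15) and Pde10a -0.03 (standard error 0.11) in the same fit. Each value was thus lower than in the fit without the block.

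Other genes enriched in striatal neurons were examined next, to see whether the pattern reached beyond the 9 markers. Of a list of 24 such genes, 22 were tested, and Isl1 and Drd3 were not analysed here. Of the 22, 15 were highest in WS replicate 2 (11.3% of all tested genes) and 9 exceeded the mean of the other 5 libraries more than 1.5-fold (1.99% of all tested genes). The list had a median ratio of 1.38, against 0.995 over all tested genes. Six3, a homeobox transcription factor needed for indirect pathway neurons to form, was counted 14, 33 and 29 times in NS and 9, 204 and 13 times in WS. WS replicate 2 was 10.3 times the mean of the other 5 libraries for Six3, which reached 50 counts on average only through that library. Syndig1l, a synaptic membrane protein gene, ranked 8 of the 11999 genes with at least 50 counts on average, with 141, 197 and 178 counts in NS and 156, 419 and 106 in WS. Six3 overlaps annotated genes on both strands, and Syndig1l a gene on the other strand.

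The abundant members of that list moved less. Scn4b, a sodium channel subunit, was 1.69 times the mean of the other 5 libraries in WS replicate 2, and Adcy5, the main striatal adenylyl cyclase, was 1.25 times. Pdyn, the dynorphin precursor, and Chrm4, the M4 muscarinic receptor, both direct pathway markers, had ratios of 1.06 and 1.08. Ebf1 and Eya1, transcriptional regulators, were below 1, at 0.769 and 0.853. The order in which NS replicates 2 and 3 both lay above the low libraries was found in 9 of the 22, against 5.62% of all tested genes.

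None of the 22 passed the thresholds in WS against NS by edgeR's quasi-likelihood test, and none had an unadjusted p under 0.05 (0 of 22 also passed with DESeq2). Of all 13747 tested genes, 119 were higher and 45 lower in WS at an unadjusted p under 0.05. The median log2 fold change was 0.12, with 20 of 22 above 0, from -0.03 (Gpr52, a receptor of indirect pathway neurons) to 1.55 (Six3, standard error 0.90). For Six3 the Benjamini-Hochberg adjusted p was 0.9998 in edgeR's quasi-likelihood test. Without WS replicate 2 the median was -0.09, with 5 of 22 above 0, and the lowest values were -2.06 (standard error 0.49) for Sh3rf2 and -1.23 (standard error 0.44) for Six3. In that edgeR fit, 4 of the 22 were lower at an unadjusted p under 0.05, against 85 of 13747 tested genes, and 0 of the 22 passed the thresholds.

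**Figure D3:**
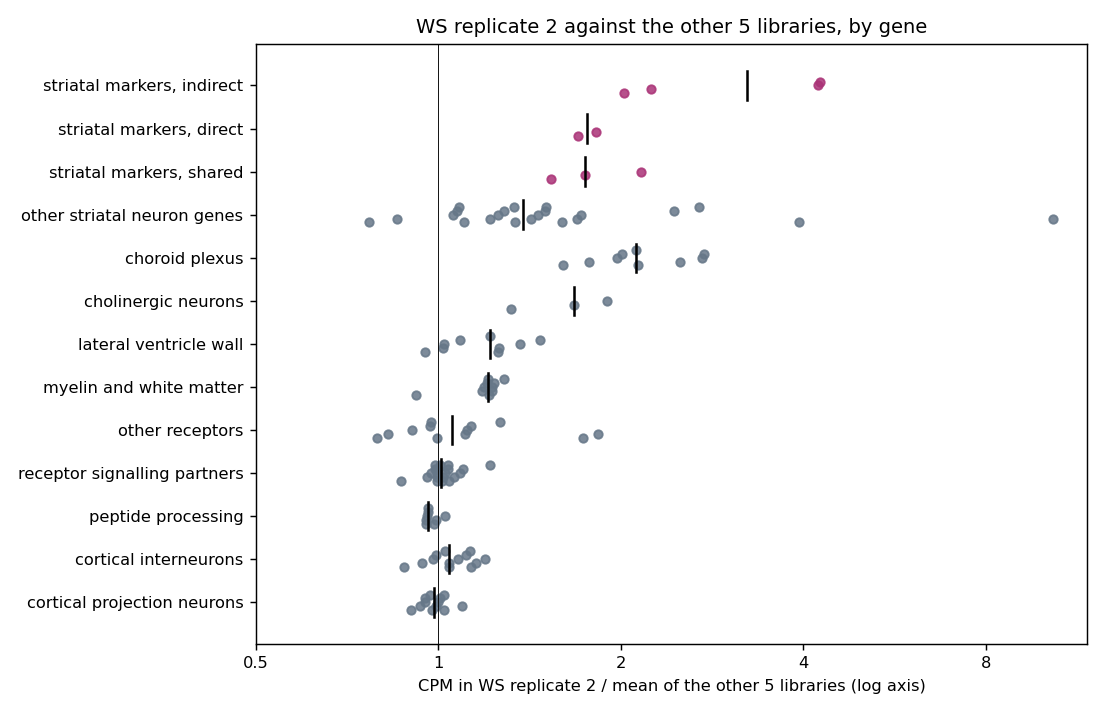
CPM in WS replicate 2 divided by the mean of the other 5 libraries, with 1 point per tested gene on a log axis and the list median as a black bar. The other striatal genes have a median of 1.38 and the cortical projection neuron genes 0.983, while among the indirect pathway markers Gpr6 (2.02) and Penk (2.24) lie below Drd2 and Adora2a, which led to the choice of genes.

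The partners of these receptors within the cell were examined as well. Of 20 genes of G protein, protein kinase A, phosphatase and cyclin-dependent kinase 5 signalling, which act with DARPP-32 and PDE10A in most neurons, 0 passed the thresholds in edgeR's quasi-likelihood test (0.0291% of all tested genes), 0 had an unadjusted p under 0.05 and 0 passed with DESeq2. With so few of all genes passing, a count of 0 in this list or the next ones does not set it apart. The values of 16 of the 20 were below 0, with a median of -0.04. Their log2 fold changes lay between -0.16 (Gnb5, the G protein subunit bound by RGS9, standard error 0.08) and 0.07 (Gnas, the stimulatory G protein subunit, standard error 0.08). WS replicate 2 was between 0.866 and 1.22 times the mean of the other 5 libraries for these 20 genes. The highest of these ratios was that of Gnal, the striatal form of the stimulatory G protein subunit.

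Of 13 other receptors for dopamine, adenosine, opioid and tachykinin peptides and relatives of Gpr6, 12 were tested and 0 passed the thresholds in edgeR's quasi-likelihood test (0.0291% of all tested genes), with 0 at an unadjusted p under 0.05 and 0 passing with DESeq2. The log2 fold changes lay between -0.03 (Tacr3, a neurokinin receptor, standard error 0.25) and 0.50 (Drd4, a D2-like dopamine receptor, standard error 0.40). Adora1, which encodes the A1 adenosine receptor, had 51.9 CPM per kb over the 6 libraries and was 0.904 times the mean of the other 5 in WS replicate 2. Only Drd4 and Oprk1, the kappa opioid receptor, of these 12 were above 1.5 there, with 1.83 and 1.73. Without that library the log2 fold change of Drd4 was 0.20 (standard error 0.46), and that of Oprk1 went from -0.02 to -0.49 (standard error 0.24). The 8 genes for processing and storing peptides, among them Pcsk2 and Chga, had log2 fold changes between -0.05 and 0.08. None of these 8 passed the thresholds in edgeR's quasi-likelihood test (0.0291% of all tested genes), with 0 at an unadjusted p under 0.05 and 0 passing with DESeq2.

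Lists of other tissues and cell types that a cortical sample could hold were compared by library. The 9 tested choroid plexus genes (Sostdc1, Prlr, Kl, Otx2, Aqp1, Clic6, Folr1, Enpp2 and Kcnj13) summed to 495.0, 705.6 and 887.5 CPM in NS and 304.3, 1012 and 647.9 CPM in WS. All 9 were above 0 in every library, 8 of the 9 were highest in WS replicate 2 (11.3% of all tested genes) and all 9 were more than 1.5 times the mean of the other 5 there (1.99% of all tested genes). The choroid plexus genes thus moved with the striatal markers in WS replicate 2, and also in NS replicates 2 and 3, which were above NS replicate 1 and WS replicate 1. Enpp2, which oligodendrocytes also express, made up 86.8% to 95.6% of the sum. Without it, a choice made after the data were seen, the other 8 genes summed to 46.3, 67.7 and 109.5 CPM in NS and 13.4, 133.4 and 68.8 CPM in WS. The range over libraries was then 9.96-fold, against 3.33-fold with Enpp2. In WS replicate 3 these 8 genes were thus close to NS replicate 2, while the striatal sum of 291.9 CPM was close to the lowest of 281.7 CPM. The part of choroid plexus tissue in the marker result was not tested.

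The 10 myelin genes summed to 8787, 12561 and 11901 CPM in NS and 10396, 13777 and 13934 CPM in WS. Of these 10, 6 were highest in WS replicate 2, against 11.3% of all tested genes, and all 10 had a log2 fold change above 0, with a median of 0.19 (0.11 without that library, again with all 10 above 0). As with the striatal markers, NS replicate 1 and WS replicate 1 were the lowest libraries and NS replicates 2 and 3 were higher, while WS replicate 3 was the highest for the myelin sum and low for the striatal sum. The part of white matter tissue in the marker result was not tested. The 13 cortical interneuron genes, which include markers of cells that make Penk or Tac1, summed to between 1768 and 2011 CPM, with 1940 CPM in WS replicate 2, and were highest in WS replicate 1. The 12 projection neuron genes had 3518 CPM in WS replicate 2, within the range of the other libraries. Genes of the lateral ventricle wall (9 tested, among them Foxj1 and Dcx) summed to between 83.2 and 101.4 CPM, with 101.4 CPM in WS replicate 2 and 100.6 CPM in NS replicate 3. The libraries came in the same order as in the striatal sum, over a narrower range of 1.22-fold. The part of ventricle wall tissue in the marker result was not tested.

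**Figure D4:**
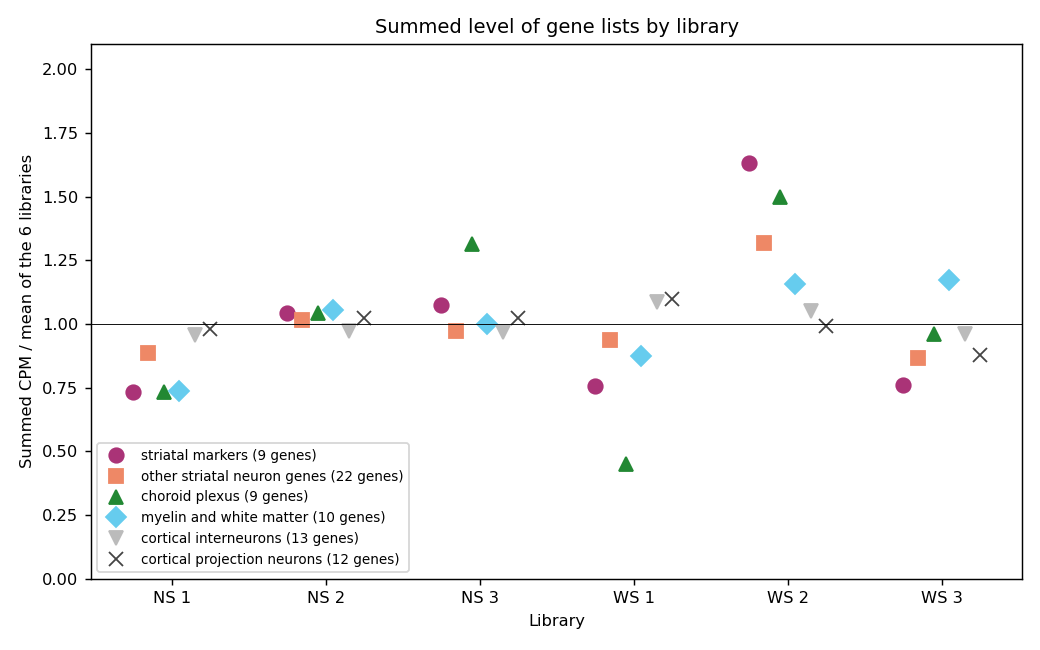
Summed CPM of 6 gene lists in each library, divided by the mean of that list over the 6 libraries, with 1 point per list and library. The striatal markers and the choroid plexus genes are highest in WS replicate 2, and the cortical projection neuron and interneuron genes are highest in WS replicate 1. The choroid plexus sum is mostly Enpp2, and the projection neuron sum is mostly Slc17a7.

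The 10 tested genes of deep cortex, subplate and claustrum summed to between 256.0 and 284.2 CPM, with WS replicate 2 the highest. Those of the thalamus (8 tested) were highest in WS replicate 3, at 140.6 CPM against 124.1 CPM in WS replicate 2, and those of the hippocampus (7 tested) in WS replicate 1, at 258.2 CPM against 221.3 CPM. The 3 tested genes of cholinergic neurons, which are present in the striatum and the basal forebrain, summed to 2.14, 3.31 and 2.61 CPM in NS and 2.67, 3.84 and 1.77 CPM in WS. Over all these lists, 0 genes passed the thresholds in WS against NS by edgeR's quasi-likelihood test and 0 with DESeq2, while Slc32a1 and Fibcd1 had an unadjusted p under 0.05 in the edgeR test. Of all 13747 tested genes, 119 were higher and 45 lower in WS at that p, so these 2 genes do not set the lists apart.

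The genes whose log2 CPM over the 6 libraries was most like the summed striatal markers were sought among 1345 other genes. These had at least 50 counts on average and an SD of log2 CPM above a lower limit taken from that of the marker sum, with no upper limit. The 10 most alike were St8sia2, Msx1, Lrrc10b, Traip, Six3, Actn2, Prkch, Pcdha3, Rarb and Syndig1l, with Pearson's r from 0.989 to 0.944 across 6 libraries. Actn2 and Syndig1l are in the list of other striatal genes. Six3 is too, but with 9 to 33 counts in the other libraries it was among the candidates only through WS replicate 2. That library has a large weight in all of these values. Lrrc10b was counted 42, 81 and 75 times in NS and 41, 193 and 30 times in WS, and was 3.58 times the mean of the other 5 libraries in WS replicate 2. Rarb, a retinoic acid receptor gene, was counted 124, 146 and 148 times in NS and 102, 218 and 109 times in WS. Reads of Pcdha3 can be shared with other genes of its cluster, which have exons in common, so its value is uncertain.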

How the data were processed

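RNA of S1 cortex (3 NS and 3 WS samples, grouped by the labels) was sequenced on DNBseq by the authors, who removed ribosomal RNA reads and aligned with HISAT2 to mm10. The counting tool is not given in the sources used here. The authors deposited, per gene, a mean that is an expected count, and an SD and z-scores, which are scores. Counts per library were recovered by multiplying each z-score with the SD and adding the mean, which gave whole numbers for 88.5% of values in the 13418 genes where rounding leaves an uncertainty under 0.1 count (4.60% by chance), and was rounded. A value was taken as whole within the rounding uncertainty of its own gene, or within a small floor where that was lower. A z-score column with a misspelled name was taken as WS replicate 3, because the deposited WS mean is the mean of it and the other WS columns. Columns of the authors' own comparison (fold changes and p-values) were not used. Totals were 15660395 to 17276168. Intervals cover counting error only.

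Counts were fitted with edgeR 4.0.16 in R 4.3.3 (TMM, filterByExpr, quasi-likelihood test, Benjamini-Hochberg adjustment over 13747 genes). Genes were called where the adjusted p was under 0.05 and the log2 fold change was beyond 1 in either direction. The script was tested on simulated data. This main fit left out the sample number, so its standard errors and p-values are unpaired. A replicate block by sample number was an alternative, because the deviations of same-numbered samples correlated. The correlations were r = 0.34, 0.23 and 0.12 across 13747 genes, which are not independent. Alternatives were the replicate block, DESeq2 1.42.0, other filters and thresholds, and leaving out each library. The genes and lists were chosen with earlier results of these data known. Named genes were the 9 markers, the highest and lowest fold change of each list, genes past the thresholds, and the 10 genes most like the marker sum. Others named in the text were chosen after their values were seen. Promoter windows came from RefSeq (GRCm38.p6) and positions from GENCODE M21.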

Additional observations from a re-analysis of the deposited data

How the results depend on the processing

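The median log2 fold change of the 9 markers in WS against NS was 0.19, and leaving out 1 library at a time gave -0.32 to 0.43, the lowest being without WS replicate 2, which turned all 9 values below 0. The range of the marker sum over libraries was 2.22-fold, and 1.46-fold to 2.22-fold with 1 library left out. The mean ratio of indirect to direct markers was 2.98, and 1.24 for receptors without Penk and Tac1. Other scalings, DESeq2 and no filter on low counts left the marker median between 0.19 and 0.20. With the replicate block the median was 0.15, 8 markers were above 0 and Pde10a was at -0.03. Among all tested genes 4 were called, against 6 with the block and 5 with DESeq2, and 0 to 6 with 1 library left out (0 without NS replicate 2 or NS replicate 3). No gene of the lists outside the 9 markers was called in any of these fits. Without WS replicate 2, Drd1 had -0.41, Tac1 -0.16, Drd2 -0.48, Adora2a -0.99, Gpr6 -0.11, Penk -0.54, Rgs9 -0.20, Pde10a -0.32 and Ppp1r1b -0.27. Why WS replicate 2 stands apart was not tested. Drd2 and Adora2a had as few as 31 and 43 counts in a library, which limits their precision.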
